A study of Mus musculus with 16 samples.

Results

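The genes described here encode the chemokines, growth factors and receptors that bring neutrophils out of the bone marrow and into tissue. Members were the rows of the count table whose symbol was Cxcl1, Cxcl2, Cxcl3, Cxcl5, Ppbp, Cxcr2, Csf3r, Csf3 or Csf2, which made 9 of 26357 genes. Total RNA of mice was sequenced in 16 libraries, 4 in each of 4 groups, in a study titled for IL-23-induced psoriasiform dermatitis in drug discovery. The groups were IL-23 with oral (per os) dosing, IL-23 with intraperitoneal dosing, vehicle with oral dosing and vehicle with intraperitoneal dosing, and in all 4 groups the dose of compound was 0 mpk, so no library held a drug effect. The labels used here name no strain, genotype, age, tissue or harvest day, nor do they say how IL-23 was given. They also do not say whether the 4 samples of a group came from separate animals, so each p-value is measured against the spread among the samples as labelled, which may in part be technical.

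CXCL1, CXCL2, CXCL3, CXCL5 and PPBP are chemokines with a Glu-Leu-Arg motif that act through one receptor, CXCR2, on neutrophils. G-CSF, encoded by Csf3, drives neutrophil production and release through the G-CSF receptor Csf3r, and GM-CSF, encoded by Csf2, acts on neutrophils, macrophages and dendritic cells. In skin, IL-17A, IL-17F, IL-1 and TNF are known to raise the chemokine transcripts in keratinocytes and other resident cells, and these transcripts are short-lived unless their decay is slowed.

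The 5 chemokine genes lay on the plus strand of chromosome 5 within 146641 bases (RefSeq, GRCm38.p6), in the order Cxcl5 (chr5:90759298-90761625), Ppbp (chr5:90768518-90770063), Cxcl3 (chr5:90786101-90788093), Cxcl1 (chr5:90891245-90893121) and Cxcl2 (chr5:90903899-90905938). Cxcr2 lay at chr1:74153994-74161246, Csf3r at chr4:126023441-126044975, Csf3 at chr11:98700183-98703631 and Csf2 at chr11:54247270-54249899, on the minus strand. The 250 bases that precede the start are printed for the 4 chemokine genes with a promoter sequence in the source used. Of these, Cxcl1, Cxcl2 and Cxcl3 rose strongly with IL-23 and Ppbp had the smallest rise. No sequence was available for Cxcl5, whose fitted log2 rise was 5.53 in oral and 6.74 in intraperitoneal dosing. The 4 windows therefore cannot show whether matches go with the rise. Capitals mark matches, on either strand, to a 10-base pattern of NF-kB type.
Cxcl1: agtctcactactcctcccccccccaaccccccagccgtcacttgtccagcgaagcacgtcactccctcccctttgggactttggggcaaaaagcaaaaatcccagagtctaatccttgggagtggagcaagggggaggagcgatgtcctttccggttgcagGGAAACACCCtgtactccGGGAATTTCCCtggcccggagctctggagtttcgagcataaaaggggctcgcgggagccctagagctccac
Cxcl2: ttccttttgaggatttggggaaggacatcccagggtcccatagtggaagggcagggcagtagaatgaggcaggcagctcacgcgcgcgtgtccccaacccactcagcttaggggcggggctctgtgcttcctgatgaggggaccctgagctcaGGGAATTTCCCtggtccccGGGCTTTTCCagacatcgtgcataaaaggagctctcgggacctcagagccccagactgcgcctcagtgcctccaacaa
Cxcl3: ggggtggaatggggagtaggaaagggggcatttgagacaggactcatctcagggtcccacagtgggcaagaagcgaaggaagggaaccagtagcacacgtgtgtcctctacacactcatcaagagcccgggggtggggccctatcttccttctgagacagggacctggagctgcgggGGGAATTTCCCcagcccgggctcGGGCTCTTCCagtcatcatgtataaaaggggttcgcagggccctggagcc
Ppbp: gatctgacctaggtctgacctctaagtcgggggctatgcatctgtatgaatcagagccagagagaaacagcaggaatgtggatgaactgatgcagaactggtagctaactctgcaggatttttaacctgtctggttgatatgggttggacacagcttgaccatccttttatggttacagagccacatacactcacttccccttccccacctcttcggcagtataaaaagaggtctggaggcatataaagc
The windows are chr5:90890995-90891244 for Cxcl1, chr5:90903649-90903898 for Cxcl2, chr5:90785851-90786100 for Cxcl3 and chr5:90768268-90768517 for Ppbp, all on the plus strand and taken from RefSeq. Cxcl1, Cxcl2 and Cxcl3 each held the run GGGAATTTCCC, which begins 71, 97 and 73 bases before the start and matches the pattern on both strands at overlapping positions. Each also held a separate match close by, GGAAACACCC in Cxcl1 (89 to 80 bases before the start), GGGCTTTTCC in Cxcl2 (78 to 69) and GGGCTCTTCC in Cxcl3 (50 to 41). Ppbp held no match. Of 32851 RefSeq promoter windows of this length, 4.65% held at least 1 match. Promoters were found for 7 of the 9 genes, all but Cxcl5 and Csf3. Of the other 3 of these 7, Csf3r held 1 match while Cxcr2 and Csf2 held none. The Csf3r window, chr4:126024409-126024658, lies inside the gene interval given above, downstream of its first base, whereas the other 6 windows adjoin the first base of their gene. The pattern TTNNGNAA of C/EBP factors was found on either strand in Cxcl2 and Csf2 (36.8% of all windows), the AP-1 pattern TGANTCA in Ppbp (6.75%), and the STAT pattern TTCNNNGAA in none of the 7 (7.02%). A match describes letters in this window and does not show binding.

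Library totals ran from 6381990 to 10078531 counts with IL-23 and from 7159325 to 14432930 with vehicle, and levels are given as CPM, the count relative to a library total scaled by TMM factors. One library stood apart: IL-23 intraperitoneal library 28 had a summed macrophage marker level of 1532 CPM, against 268.1 to 459.2 CPM in the other 7 IL-23 libraries, and a summed fibroblast marker level of 5145 CPM, against 990.1 to 1830 CPM. Results that rest on library 28 are therefore given with and without it. Keratin and other keratinocyte markers were abundant in every library (8 genes, summed level 21540 to 29510 CPM with vehicle and 35840 to 66080 CPM with IL-23), and skeletal muscle markers were also present (2864 to 6329 CPM and 1380 to 2610 CPM). In RNA from a bulk sample, more cells of a type and more RNA per cell cannot be told apart.

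All 9 genes were higher with IL-23 in both dosing routes by edgeR's quasi-likelihood test, called below a Benjamini-Hochberg adjusted p of 0.05. The test is set against a broad response: of 14671 genes that passed the count filter, 63.3% were called in oral dosing and 61.7% in intraperitoneal dosing, and 29.2% and 30.8% were called higher. For the mean of both routes 73.6% were called and 34.9% were called higher and 38.7% lower. Of the 9 genes, 8 passed the filter. Cxcl5, Csf3 and Csf2 passed it only through their IL-23 libraries (0 of 8 vehicle libraries reached the filter's minimum for any of the 3), so they had to differ once tested and their calls support nothing beyond their levels. Ppbp did not pass and was tested in the same fit with no filter, where 21.5% of 20799 genes were called higher in oral dosing, 22.6% in intraperitoneal dosing and 26.5% for the mean. Every IL-23 library lay above every vehicle library for 9 genes in oral dosing and for 8 in intraperitoneal dosing, which was the case for 27.9% and 25.2% of all genes that passed the filter. Across both routes this held for 8 of the 9 genes and for 19% of genes that passed the filter. The counts of the 9 include Ppbp, which is outside that background, and the 3 genes whose separation the filter favoured, so they are given as a description. The median log2 fold change of all genes tested was -0.06 in oral and -0.02 in intraperitoneal dosing. It moved to -0.26 and -0.23 with plain library sizes, where the share of higher among the calls fell from 46.2% to 31% and from 49.9% to 31.5%.

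**Figure D1:**
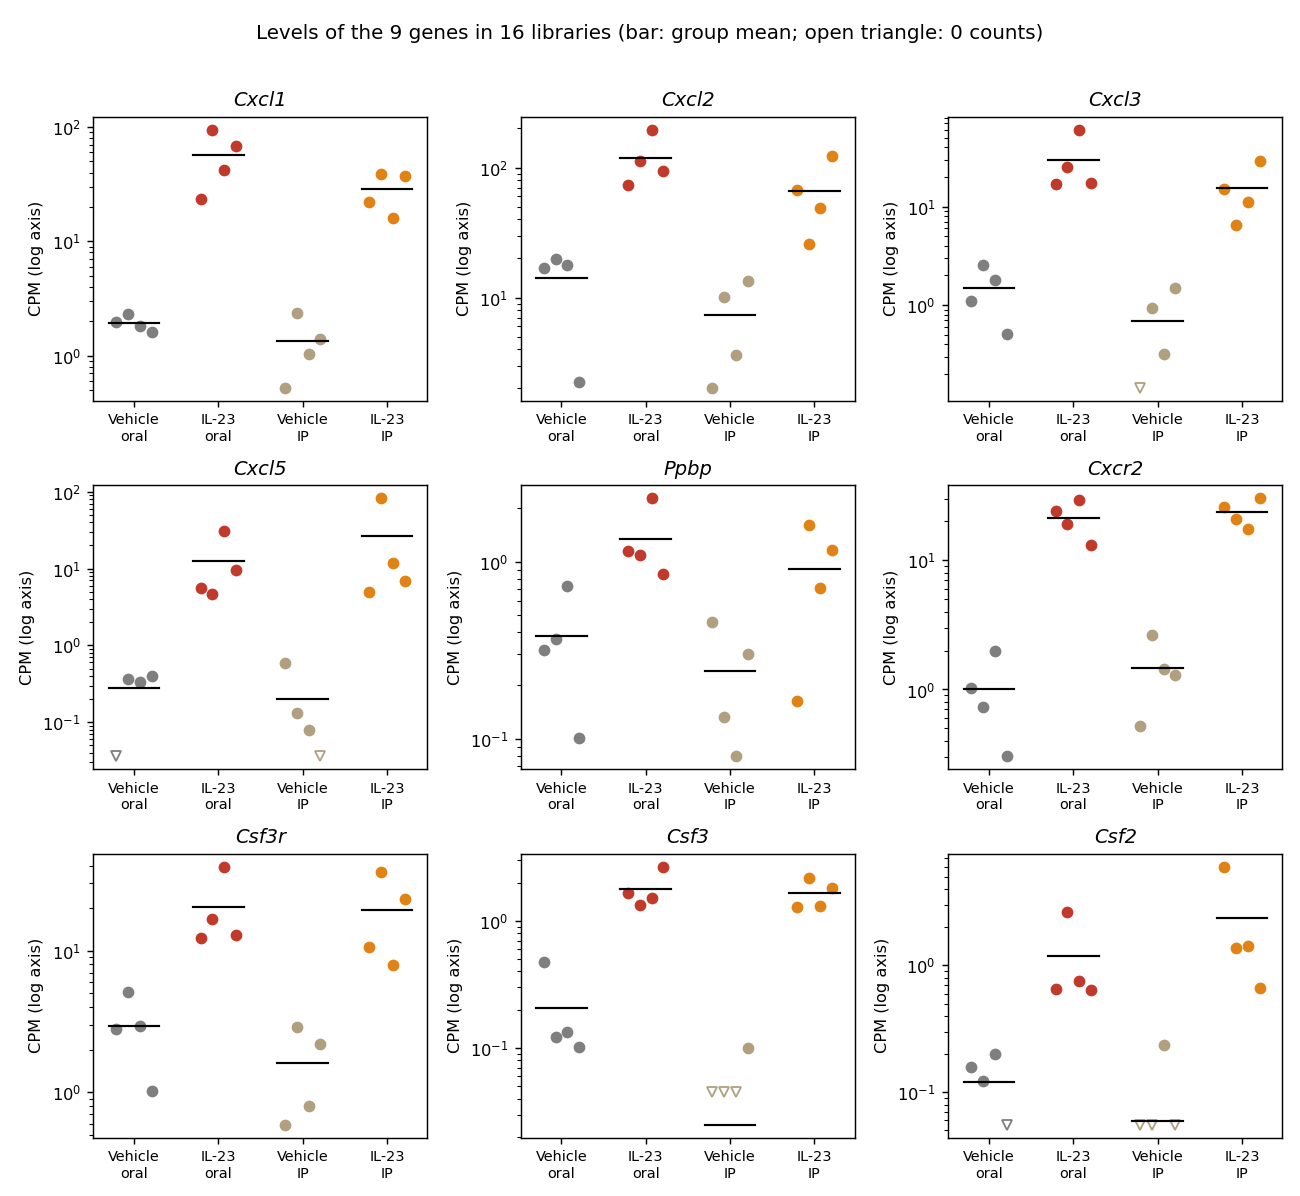
Level of each gene in CPM (log axis) in the 16 libraries by group, with points for libraries, a bar for the group mean and open triangles for libraries with 0 counts. Every gene except Ppbp has all 8 IL-23 libraries above all 8 vehicle libraries.

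Library values below follow the order of the sample numbers in the titles: 4, 27, 33 and 51 for oral vehicle, 14, 24, 26 and 68 for oral IL-23, 49, 50, 59 and 67 for intraperitoneal vehicle, and 25, 28, 31 and 61 for intraperitoneal IL-23.

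Cxcl1, the mouse chemokine also known as KC, had levels of 1.99, 2.31, 1.798 and 1.62 CPM in oral vehicle and 23.5, 94.6, 42.1 and 67.8 CPM in oral IL-23 libraries. With intraperitoneal dosing it had 0.522, 2.37, 1.03 and 1.399 CPM and 22.04, 38.5, 16.2 and 37.6 CPM. The lowest IL-23 library, at 16.2 CPM, was far above the highest vehicle library, at 2.37 CPM. The log2 fold change was 4.90 ± 0.44 (SE, edgeR adjusted p = 1.29e-07) in oral and 4.55 ± 0.48 (7.49e-07) in intraperitoneal dosing. Oral library 24 held the highest level of Cxcl1, which was not the library that held the highest Cxcl2 and Cxcl3.

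Cxcl2, also known as MIP-2, had the highest vehicle levels of the group, with 16.8, 19.8, 17.7 and 2.23 CPM in oral and 2.02, 10.02, 3.65 and 13.5 CPM in intraperitoneal vehicle libraries. With IL-23 it reached 73.99, 111.7, 195 and 93.7 CPM in oral and 67.2, 26.04, 48.8 and 122 CPM in intraperitoneal libraries. The groups did not overlap, but library 28 at 26.0 CPM came close to vehicle library 27 at 19.8 CPM. Vehicle libraries fell into a low set (51, 49 and 59, at 2.02 to 3.65 CPM) and a set at 10.02 to 19.8 CPM. Cxcl2 rose by 3.06 ± 0.56 log2 units (SE, edgeR adjusted p = 0.000161) in oral and 3.26 ± 0.61 (0.000216) in intraperitoneal dosing, the smallest rise among the 4 chemokines that passed the filter.

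Cxcl3 had 1.11, 2.56, 1.798 and 0.507 CPM in oral vehicle and 16.9, 25.3, 60.4 and 17.2 CPM in oral IL-23 libraries. Intraperitoneal vehicle libraries held 0, 0.923, 0.317 and 1.499 CPM and intraperitoneal IL-23 libraries 15.2, 6.57, 11.04 and 28.99 CPM. No library of one agent reached the range of the other, and library 26 was highest and library 28 lowest among the IL-23 libraries, as for Cxcl2. The log2 fold change was 4.34 ± 0.62 (SE, edgeR adjusted p = 1.39e-05) in oral dosing, or 3.74 without library 26, and 4.65 ± 0.72 (3.6e-05) in intraperitoneal dosing, or 5.51 without vehicle library 67. The transcripts of Cxcl2 and Cxcl3 share 61 of their 50-base words, 5.76% of those in Cxcl2 and 6.31% of those in Cxcl3, while no other pair of the 5 chemokines shares any. Reads in that stretch could be split or dropped by the counting, so the single values of Cxcl2 and Cxcl3 are uncertain to that extent.

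Cxcl5, known as LIX in mice and made largely by epithelial and stromal cells, was near 0 without IL-23: 0, 0.365, 0.333 and 0.405 CPM in oral and 0.588, 0.132, 0.0793 and 0 CPM in intraperitoneal vehicle libraries, 23 counts in all. With IL-23 it had 5.58, 4.71, 30.9 and 9.56 CPM in oral and 5.02, 82.03, 11.6 and 6.79 CPM in intraperitoneal libraries. Library 28 was 82.0 CPM while the other 3 libraries of its group lay between 5.02 and 11.6 CPM, and library 26 stood above its group. The fitted rise of Cxcl5 was 5.53 ± 1.15 log2 units (SE, edgeR adjusted p = 0.000513) in oral and 6.74 ± 1.14 (8.4e-05) in intraperitoneal dosing. Without library 28 the intraperitoneal value was 5.01 (edgeR adjusted p = 4.45e-05), without vehicle library 49 it was 8.39, and the oral value without library 26 was 4.60. The fitted rise of Cxcl5 was the largest of the 9 genes in both routes with all libraries, but single libraries set that rank. In intraperitoneal dosing the largest rise was that of Csf3 without library 28 (5.41) or vehicle library 67 (6.99) and that of Csf2 without vehicle library 59 (7.43), and in oral dosing that of Cxcl1 without library 26 (5.02). The macrophage and fibroblast marker sums of 1532 and 5145 CPM in library 28 went with its Cxcl5 level, and their part in the result was not tested.

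Ppbp, whose product is stored in platelets and becomes a CXCR2 ligand after cleavage, stayed at the edge of detection. It had 0.318, 0.365, 0.732 and 0.101 CPM in oral vehicle and 1.15, 1.09, 2.28 and 0.8499 CPM in oral IL-23 libraries, from 19 and 42 counts. Intraperitoneal libraries had 0.457, 0.132, 0.0793 and 0.2998 CPM with vehicle and 0.162, 1.61, 0.713 and 1.16 CPM with IL-23, from 12 and 28 counts. The intraperitoneal groups overlapped, since IL-23 library 25 at 0.162 CPM lay within the vehicle range. The log2 fold change was 1.73 ± 0.58 (SE, edgeR adjusted p = 0.0191) in oral and 1.83 ± 0.65 (0.0267) in intraperitoneal dosing, the smallest of the 9 genes. The oral call was lost without vehicle library 51 (adjusted p = 0.058, edgeR) or IL-23 library 26 (0.0956), and without vehicle library 33 the value was 2.32. The intraperitoneal call was lost without vehicle library 50 (adjusted p = 0.0579, edgeR) or 59 (0.0798) or IL-23 library 28 (0.137) or 61 (0.0588), and with plain library sizes (0.0508). Without vehicle library 49 the intraperitoneal value was 2.42. The mean over routes, 1.78 ± 0.43 (edgeR adjusted p = 0.00149), kept its call under all 24 alternatives. Of 10 platelet markers, 3 were tested: Gp1bb and Itga2b were called higher and Gp1ba lower for the mean over routes. The summed level of the 10 was 24.2 to 32.4 CPM with vehicle and 30.1 to 55.2 CPM with IL-23, and its part in the Ppbp result was not tested.

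**Figure D2:**
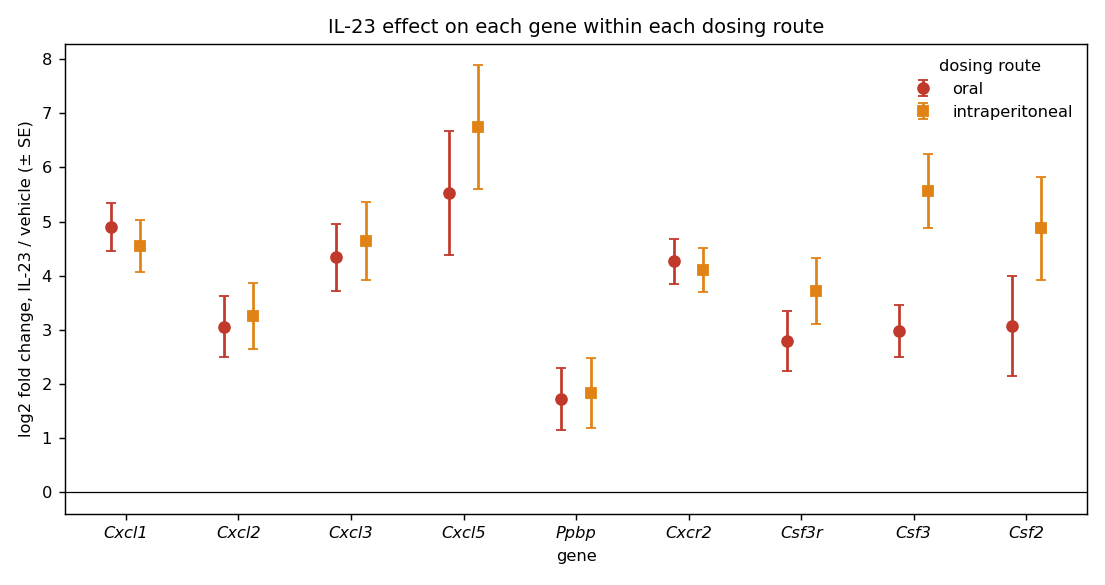
Log2 fold change of IL-23 over vehicle for each gene in oral dosing (circles) and intraperitoneal dosing (squares), with bars of 1 SE from the edgeR fit. All values are above 0, with Ppbp the smallest in both routes. Cxcl5 is the largest with all libraries, but is below Csf3 in intraperitoneal dosing without library 28 (5.01 against 5.41) and below Cxcl1 in oral dosing without library 26 (4.60 against 5.02), and the SE is widest for Cxcl5 and Csf2.

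The genes next to the chemokines on chromosome 5 gave a local comparison. Rassf6, beyond Cxcl5, had 19.97 ± 2.36 CPM with vehicle and 20.6 ± 4.80 CPM with IL-23 (SD, n = 8), and Mthfd2l, beyond Cxcl2, had 6.42 ± 0.82 and 6.12 ± 1.45 CPM. Pf4, the platelet chemokine gene that lies beside Ppbp, rose from 29.6 ± 7.33 to 66.9 ± 30.6 CPM, or to 56.7 CPM without library 28. Its log2 change with all libraries was 1.18 ± 0.21 for the mean over routes (SE, edgeR adjusted p = 7.62e-05). Cxcl15, a lung chemokine gene, had 4 counts in all libraries together.

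Cxcr2, the receptor of these chemokines on neutrophils, had 1.03, 0.73, 1.997 and 0.304 CPM in oral vehicle and 23.95, 19.2, 29.2 and 13.2 CPM in oral IL-23 libraries. In intraperitoneal dosing the values were 0.522, 2.64, 1.43 and 1.299 CPM and 25.9, 20.97, 17.5 and 30.2 CPM. IL-23 libraries spanned a 2.29-fold range, the narrowest of the group after Csf3, and none came near the highest vehicle library at 2.64 CPM. The log2 fold change was 4.26 ± 0.41 (SE, edgeR adjusted p = 2.5e-07) in oral and 4.10 ± 0.41 (4.22e-07) in intraperitoneal dosing. Without vehicle library 33 the oral value was 4.88.

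Csf3r, the G-CSF receptor carried by neutrophils and their precursors, had 2.78, 5.11, 2.93 and 1.013 CPM in oral vehicle and 12.3, 16.9, 39.2 and 12.96 CPM in oral IL-23 libraries. It had 0.588, 2.899, 0.793 and 2.199 CPM in intraperitoneal vehicle and 10.7, 35.8, 7.96 and 23.2 CPM in intraperitoneal IL-23 libraries. Within each route the agents did not overlap, and across routes the lowest IL-23 library, at 7.96 CPM, was above the highest vehicle library, at 5.11 CPM. Libraries 26 and 28 held the highest levels. Csf3r rose by 2.80 ± 0.55 log2 units (SE, edgeR adjusted p = 0.000325) in oral and 3.71 ± 0.61 (6.3e-05) in intraperitoneal dosing.

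Markers of neutrophils, like both receptors, were higher with IL-23. Of 20 markers that excluded Cxcr2 and Csf3r, 14 passed the filter. All 14 were called higher for the mean over routes, beside 34.9% of all genes tested. Their median log2 fold change was 3.25, beside -0.04 over all genes. At least Cd177, Stfa2l1 and Retnlg passed only through their IL-23 libraries. The highest vehicle levels of Cd177 and Stfa2l1 were 0.20 and 0.97 CPM, under the filter's minimum of 1.133 CPM. Retnlg reached 1.59 CPM in 1 vehicle library, but its vehicle mean of 0.45 CPM was too low for 4 of them to reach the minimum. Cd177 and Stfa2l1 had to differ once tested and the filter favoured a difference for Retnlg, so the count of 14 is given as a description. Without library 28, 13 of the 14 were called, the exception being Mmp8, a neutrophil collagenase, whose log2 fold change was 1.32 with that library and 0.76 without it (edgeR adjusted p = 0.0222 and 0.142). With plain library sizes Mmp8 also did not pass. The summed level of the 20 markers was 19.0 to 43.2 CPM with vehicle (median 37.3) and 90.9 to 277 CPM with IL-23 (median 133). It was highest in libraries 26 (277 CPM) and 28 (256 CPM), and library 28 also held the macrophage marker sum of 1532 CPM. Cd177, a neutrophil surface protein, had 0.06 ± 0.08 CPM with vehicle and 2.75 ± 2.29 CPM with IL-23 (SD, n = 8). Stfa2l1, a stefin of mouse neutrophils, had 0.39 ± 0.34 and 6.77 ± 3.40 CPM, and Retnlg, a resistin-like gene of neutrophils, had 0.45 ± 0.56 and 6.50 ± 5.65 CPM. Without library 28 the IL-23 means of Cd177, Stfa2l1 and Retnlg were 2.78, 6.61 and 6.54 CPM, so the high sum in that library did not come from these 3. Elane, the elastase of early granulocyte precursors, was at 0 in all 8 IL-23 libraries, and Ly6g was at 0 in the oral vehicle libraries. The part of neutrophil number in the result was not tested.

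Csf3, the G-CSF gene, was close to undetected without IL-23, with 10 counts over the oral vehicle libraries and 1 count over the intraperitoneal vehicle libraries. Levels were 0.477, 0.122, 0.133 and 0.101 CPM in oral vehicle and 1.64, 1.33, 1.52 and 2.66 CPM in oral IL-23 libraries. Intraperitoneal vehicle libraries had 0, 0, 0 and 0.0999 CPM and intraperitoneal IL-23 libraries 1.296, 2.19, 1.31 and 1.82 CPM. All IL-23 libraries lay in a 2.05-fold range, and none overlapped with vehicle. The log2 fold change was 2.98 ± 0.47 (SE, edgeR adjusted p = 4e-05) in oral dosing, or 3.76 without vehicle library 4, and 5.57 ± 0.68 (3.41e-06) in intraperitoneal dosing, or 6.99 without vehicle library 67. As ratios of pooled counts, which cover counting error only, Csf3 was 8.37-fold higher in oral dosing (95% exact interval 4.24 to 18.4) and 76.1-fold in intraperitoneal dosing (13.03 to 3066). Without vehicle library 67 no intraperitoneal vehicle count was left, and the fold was at least 19.8, with 3 counts for the whole group as the floor. The fitted log2 value of a gene with so few control counts depends on the prior count.

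Csf2, the GM-CSF gene, had 6 counts over the oral vehicle libraries and 3 counts over the intraperitoneal vehicle libraries. Levels were 0.159, 0.122, 0.1997 and 0 CPM in oral vehicle and 0.656, 2.65, 0.761 and 0.637 CPM in oral IL-23 libraries. With intraperitoneal dosing they were 0, 0, 0.238 and 0 CPM and 5.995, 1.38, 1.43 and 0.663 CPM. Single libraries stood out, 24 in oral IL-23 and 25 in intraperitoneal IL-23, although no IL-23 library overlapped with vehicle. Csf2 rose by 3.07 ± 0.92 log2 units (SE, edgeR adjusted p = 0.00797) in oral and 4.88 ± 0.95 (0.000325) in intraperitoneal dosing. The oral call was lost without library 24 (2.29, edgeR adjusted p = 0.0561), and the intraperitoneal value was 3.94 without library 25 and 7.43 without vehicle library 59. From pooled counts the ratios were 9.14 (95% exact interval 3.83 to 26.4) in oral and 33.7 (11.02 to 167) in intraperitoneal dosing, and at least 24.3-fold without vehicle library 59.

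To compare levels between genes, CPM was divided by the merged exon length in kilobases. That length covers all GENCODE transcripts of the gene that are matched to a RefSeq mRNA. Over the 8 IL-23 libraries the order by mean level per kb was Cxcl2 (83.3 ± 47.1, SD), Cxcl1 (44.9 ± 27.7), Cxcl3 (22.4 ± 16.6), Cxcl5 (12.4 ± 16.9), Cxcr2 (7.39 ± 1.93), Csf3r (5.71 ± 3.40), Csf2 (2.22 ± 2.30), Csf3 (1.22 ± 0.34) and Ppbp (1.04 ± 0.58). The ranges of all neighbours in this order overlapped. Without library 28 the mean of Cxcl5 was 6.73 ± 5.92 per kb (SD, n = 7), below that of Cxcr2 at 7.46 ± 2.08, and the order of the other genes stayed as given. Within libraries, Cxcl2 was above Cxcl1, Cxcl1 above Cxcl3 and Cxcl3 above Cxcl5 in 7 of 8 each, whereas Cxcl5 was above Cxcr2 and Csf2 above Csf3 in only 4 of 8. In the 8 vehicle libraries Cxcl2 was again first, at 9.66 ± 6.59 per kb, above Cxcl1 (1.71 ± 0.66) in 8 of 8, and Csf3 was last at 0.08 ± 0.11.

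The mean make-up of the chemokine transcripts differed between agents, while the ranges of each share overlapped. Per kb, Cxcl2 made up 69.5% ± 12.8 (SD, n = 8) of the 5 chemokines with vehicle and 50.3% ± 14.0 with IL-23, and Cxcl1 17.1% ± 9.59 and 27.2% ± 10.1. Without library 28 the Cxcl2 share with IL-23 was 54.8% ± 6.55 (n = 7). Cxcl5 made up 2.64% ± 4.11 with vehicle, or 1.34% ± 1.95 without library 49. With IL-23 it made up 8.89% ± 13.6, or 4.15% ± 2.76 without library 28. The share of Cxcl3 was 7.43% ± 3.54 with vehicle and 12.99% ± 4.402 with IL-23, and that of Ppbp 3.25% ± 4.13 and 0.66% ± 0.33. The Ppbp share with vehicle was 1.81% ± 0.74 (n = 7) without library 49, where it was 13.3%. These shares were described after the data had been seen and were not tested. Library 28 had a make-up of its own, with Cxcl5 at 42.0% and Cxcl2 at 19.0%, against Cxcl5 shares of 2.35% to 9.25% in the other 3 libraries of its group, at most 6.52% in the oral IL-23 libraries and at most 11.8% with vehicle, in library 49. In the other 7 IL-23 libraries Cxcl2 was the most abundant chemokine per kb.

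**Figure D3:**
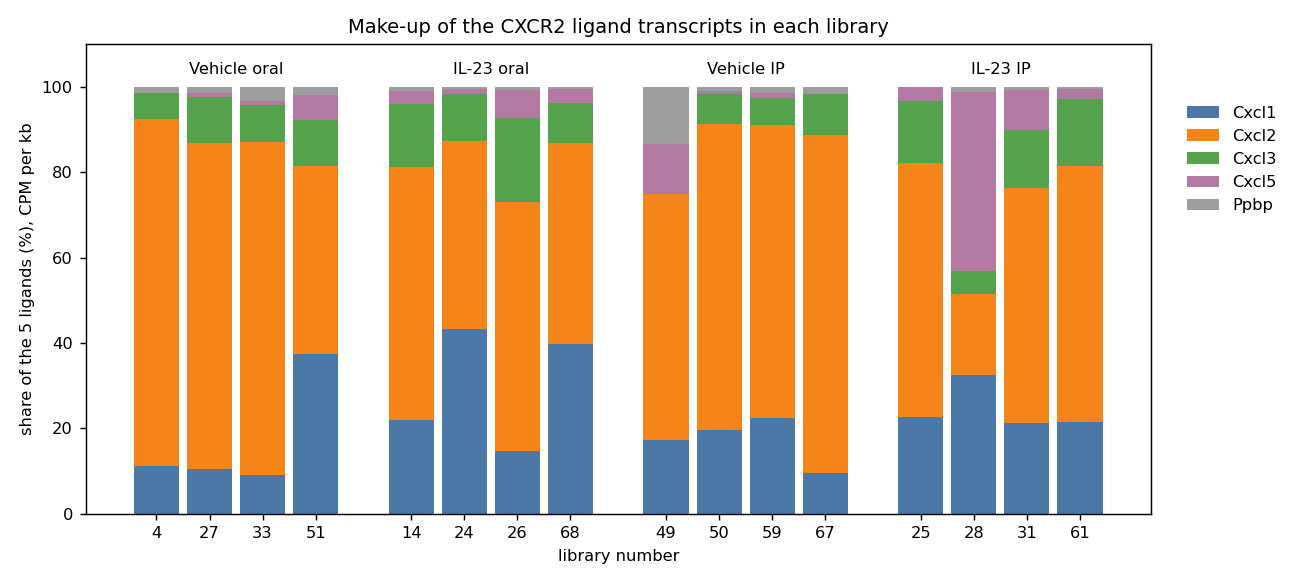
Share of each of the 5 chemokines in their summed level per kb, in percent, with 1 stacked bar for each of the 16 libraries, grouped by agent and route. Cxcl2 takes the largest share in every bar except that of library 28, where Cxcl5 takes 42.0%.

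Cxcl2 and Cxcl3 moved together across IL-23 libraries. Over the 8 libraries the log2 levels had r = 0.977 (exact permutation p = 9.92e-05, two-sided, adjusted p = 0.00278 over 28 pairs of the 8 genes that passed the filter). Spearman's rho was 1.0 (exact permutation p = 4.96e-05, the smallest this design allows, adjusted p = 0.00139), and r was 0.965 without the 2 libraries farthest from the median. Centred on the mean of each route, r was 0.969 (exact permutation, adjusted p = 0.0486). This was the only one of the 28 pairs to pass. The ratio of Cxcl2 to Cxcl3 counts stayed between 3.23 and 5.44 in the IL-23 libraries while Cxcl2 itself spanned a 7.49-fold range and Cxcl3 a 9.19-fold range. In the 7 vehicle libraries with a Cxcl3 count the ratio was 4.4 to 15.1, and from pooled counts it was 10.2 with vehicle and 4.08 with IL-23. The shared sequence of the 2 transcripts could add to a relation between their counts, and its part was not tested.

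Csf3r followed Cxcl2 and Cxcl3 in every IL-23 library except 28. Without library 28 (n = 7) Csf3r had r = 0.979 with Cxcl2 and 0.992 with Cxcl3 (exact permutation p = 0.000198 each, the smallest possible, adjusted p = 0.00185). With library 28 the values were 0.192 (exact permutation, adjusted p = 0.797) and 0.333 (adjusted p = 0.729). Library 28 had the lowest Cxcl2 and Cxcl3 levels of the 8, at 26.0 and 6.57 CPM, beside Csf3r at 35.8 CPM. Cxcr2 did not share this pattern: its r with Csf3r was 0.452 over 8 libraries (exact permutation, adjusted p = 0.729), and its r with Cxcl2 was 0.324. Cxcl1 had r = 0.403 with Cxcl2 (exact permutation, adjusted p = 0.729), and Csf3 and Csf2 had r = -0.59 (adjusted p = 0.729) and rho = -0.81 (adjusted p = 0.305). The vehicle libraries fell into separate sets, so no r is given there. Libraries 51, 49 and 59 held the 3 lowest levels of Cxcl2, of Cxcl3 and of Csf3r, and the 3 lowest summed neutrophil marker levels, 19.5, 19.0 and 26.8 CPM.

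**Figure D4:**
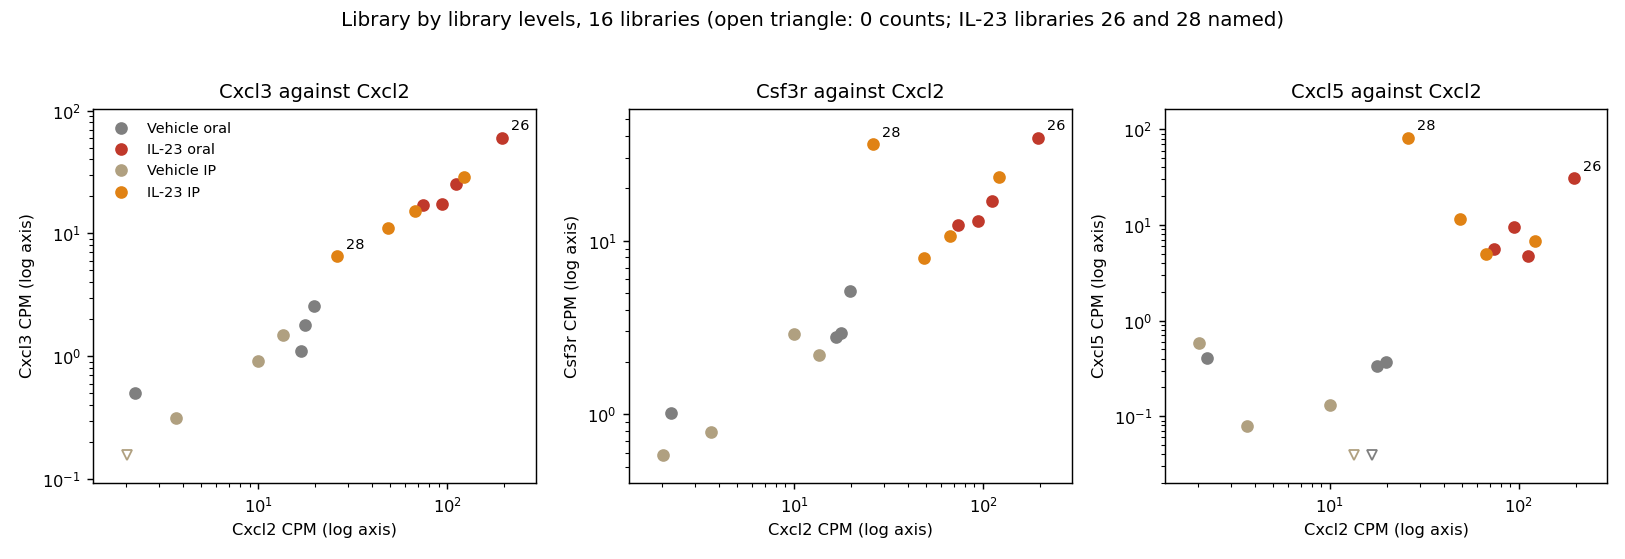
Cxcl3, Csf3r and Cxcl5 levels against the Cxcl2 level in the 16 libraries, in CPM on log axes, with colours for the 4 groups and open triangles at the lower edge for 0 counts. Cxcl3 follows Cxcl2 in all IL-23 libraries, whereas library 28 stands apart for Csf3r (35.8 CPM) and Cxcl5 (82.0 CPM).

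The genes with the most similar pattern were looked up among 14353 genes averaging 1 CPM or more, by Pearson's r of log2 residuals from the 4 group means over 16 libraries, as a description without a test. For Csf3r they were Cd300lf (r = 0.929), Irg1 (0.928) and Clec4d (0.899), and without library 28 these values were 0.914, 0.931 and 0.931. For Cxcr2 they were G6pdx (0.856), Psmb5 (0.853) and Rabggta (0.851). For Cxcl1 they were Zfp933 (0.848), Lrrc20 (0.842) and 1190007I07Rik (0.825), and for Csf3 Fat1 (0.821), Dennd1a (0.819) and Esr1 (0.773). Taking the highest of 14353 values favours a high r, so the size of these values carries no weight, and Csf3 rests on few counts. Clec4d is also 1 of the 20 neutrophil markers, and libraries share depth and RNA composition across all these genes.

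No gene of the group was called for a route difference in the response to IL-23, nor was any of the 14671 genes tested (0%) by edgeR, although 796 genes had an unadjusted p under 0.05 and DESeq2 called 1. The widest separation was for Csf3, where the intraperitoneal log2 effect exceeded the oral one by 2.59 ± 0.99 (95% interval 0.44 to 4.74, edgeR unadjusted p = 0.0176, adjusted p = 0.875). IL-23 levels of Csf3 were close in both routes, 1.79 ± 0.59 CPM oral and 1.65 ± 0.43 CPM intraperitoneal (SD, n = 4), and the vehicle levels were 0.21 ± 0.18 and 0.02 ± 0.05 CPM. Csf2 differed by 1.80 ± 1.63 (interval -1.76 to 5.36), Cxcl5 by 1.22 ± 2.17 (-3.51 to 5.95) and Csf3r by 0.91 ± 0.82 (-0.88 to 2.70). The values of the other 5 genes lay between -0.34 and 0.31, with intervals such as -1.90 to 1.21 for Cxcl1 and -1.45 to 1.13 for Cxcr2, so differences of more than 2-fold either way were not excluded by these samples. Between routes within IL-23 libraries, Cxcl1 was lower with intraperitoneal dosing by a log2 value of -1.004 ± 0.35 (edgeR unadjusted p = 0.00986, adjusted p = 0.295), which did not pass. In that comparison edgeR called 0 of 14671 genes (1874 at an unadjusted p under 0.05) and DESeq2 called 57. Within vehicle libraries Csf3 had -2.71 ± 0.92 (edgeR unadjusted p = 0.00892, adjusted p = 0.598), and edgeR called 0 genes (1087 at an unadjusted p under 0.05) and DESeq2 1.

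Cytokines known to induce these chemokines, listed with receptors, were mostly higher with IL-23. Of 22 inducing cytokines and receptors, 21 were tested, and for the mean over routes 20 were called higher, 0 lower and 1 did not pass, with a median log2 fold change of 1.84. Il17a was under the count filter and was not tested, with no count in any of the 8 vehicle libraries. The 20 include Il1rn, which encodes the IL-1 receptor antagonist (1.84), and receptor genes with small changes, such as Il1r1 (0.27) and Il1rap (0.24). Beside this list and those below, 34.9% of all genes tested were called higher and 38.7% lower. Under plain library sizes these calls were 3515 and 7516 genes. With plain library sizes 17 were called higher. Il17f, which drives chemokine release from epithelial cells, had 0.07 ± 0.10 CPM with vehicle and 8.36 ± 3.73 CPM with IL-23 (SD, n = 8). Il22, a cytokine that acts on keratinocytes, had 1 library above 0 with vehicle, at 0.10 CPM, and 7.94 ± 3.42 CPM with IL-23. Il17c, an epithelial member of the IL-17 family, had 0.16 ± 0.13 and 3.30 ± 2.22 CPM. The highest vehicle levels of Il17f, Il22 and Il17c were 0.26, 0.10 and 0.40 CPM, under the filter's minimum of 1.133 CPM. They passed only through their IL-23 libraries and had to differ once tested, so their calls support nothing beyond their levels.

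Genes that control chemokine transcription and mRNA decay also rose, by less. All 19 were tested, and for the mean over routes 17 were called higher, 0 lower and 2 did not pass, with a median log2 fold change of 0.68. With plain library sizes 13 were called higher, and Traf3ip2, Traf6, Relb and Elavl1 did not pass. Zc3h12a, which encodes the ribonuclease Regnase-1 that degrades cytokine mRNAs, had 25.8 ± 6.11 CPM with vehicle and 254.8 ± 40.0 CPM with IL-23 (SD, n = 8). Nfkbiz, which encodes the NF-kB cofactor IkB-zeta, had 39.0 ± 5.66 and 175 ± 25.0 CPM. Zfp36, which encodes the mRNA-destabilising protein tristetraprolin, had 46.5 ± 6.22 and 157 ± 89.6 CPM.

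Downstream of the receptors, 24 of 26 signalling genes were tested, of which 18 were called higher, 1 lower and 5 did not pass for the mean over routes, with a median log2 fold change of 0.44. With plain library sizes 15 were called higher and 1 lower. Socs3, a feedback inhibitor of G-CSF receptor signalling, had 17.0 ± 4.06 CPM with vehicle and 74.4 ± 14.7 CPM with IL-23 (SD, n = 8). Vav1, a guanine nucleotide exchange factor of blood cells, had 4.84 ± 0.84 and 18.3 ± 8.29 CPM, with an IL-23 mean of 15.5 CPM without library 28. Stat5b, a transcription factor that acts after cytokine receptors, fell by 0.29 ± 0.07 log2 units (SE, edgeR adjusted p = 0.00165).

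Of 13 other chemokine and colony-stimulating factor genes, 9 were tested, and 6 were called higher, 1 lower and 2 did not pass for the mean over routes, with a median log2 fold change of 0.60. Csf2rb, the signalling subunit of the GM-CSF receptor, had 15.3 ± 2.65 CPM with vehicle and 46.2 ± 18.2 CPM with IL-23 (SD, n = 8). Its IL-23 mean was 40.7 CPM without library 28. Csf1, the macrophage growth factor, had 31.3 ± 3.91 and 53.6 ± 10.9 CPM. Il34, which acts on the same receptor as CSF1, fell by 0.22 ± 0.10 log2 units (SE, edgeR adjusted p = 0.0482), a call lost without library 28 (adjusted p = 0.129) and with RLE factors (0.0967). With plain library sizes 3 of the 9 were called higher.

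Markers of cells that could make or carry these transcripts changed to different extents for the mean over routes. Of all genes tested, 34.9% were called higher and 38.7% lower in that comparison, or 3515 and 7516 of 14671 genes with plain library sizes. The counts of each list are a description beside these shares. All 8 activated keratinocyte markers were called higher, with a median log2 fold change of 5.35 and a summed level of 396 to 1322 CPM with vehicle and 30840 to 51970 CPM with IL-23. Among them S100a8 and S100a9, alarmins also abundant in neutrophils, had 27.1 ± 12.7 and 38.9 ± 18.3 CPM with vehicle and 10270.0 ± 1654 and 13360.0 ± 1987 CPM with IL-23 (SD, n = 8). Of 8 keratinocyte markers 7 were called higher and 1, Krt15, lower, against 4 and 1 with plain library sizes. Of 10 macrophage markers 6 were called higher, 1 (Mertk) lower and 3 did not pass, and of 11 T cell markers tested 5 were called higher, 1 lower and 5 did not pass. Without library 28 these were 6 higher and 2 lower for macrophage markers and 4 higher and 2 lower for T cell markers. With plain library sizes 3 T cell markers were called higher and 2 lower. All 6 mast cell markers tested were called lower, as were all 10 skeletal muscle markers and 4 of 7 fibroblast markers, with 3 not passing, or 6 of 7 without library 28. Of 8 endothelial markers 2 (Sele and Selp) were called higher, 4 lower and 2 did not pass. The part of these cell types in the results was not tested.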

How the data were processed

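The deposited values are read counts per gene for 16 libraries. They are whole numbers whose totals differ between libraries, so they appear unscaled. Per the labels' protocols, the libraries were stranded total RNA (TruSeq) run on an Illumina HiSeq. The submitters' processing notes name FastQC, STAR 2.52, Subread 1.5.0 with featureCounts, and the GRCm38 build. The sources used here do not state the annotation release, the strand setting or how reads with several matches were handled. Totals of 6381990 to 14432930 counts per library limit the precision of genes with few counts.

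edgeR 4.0.16 in R 4.3.3 tested the counts (TMM factors, filterByExpr with a minimum count of 10, 4 group means, 12 residual degrees of freedom). Tests were 2-sided, p-values were adjusted by Benjamini-Hochberg across the 14671 genes, and the threshold was 0.05. Ppbp was taken from the same fit without a filter (20799 genes). The SE was the size of the log2 fold change divided by the root of the F statistic. Intervals of route differences span this SE times the t quantile at 12 degrees of freedom, fewer than the test used. They are therefore approximate. Relations used exact permutation (scipy 1.17.1) and log2 CPM (prior count 2). Alternatives were RLE, upper-quartile and plain library sizes, 2 other filters, DESeq2 1.42.0, limma-voom (limma 3.58.1), only the groups compared, a fit with the routes pooled, and each library left out in turn. List counts under other scalings and without library 28, and the order of levels, shares and rises without single libraries, were added after seeing the data. The fit was tested on simulated data in which few genes changed, none at the lowest levels, and all genes had the same spread. That simulation does not cover the broad response or the genes with few counts here. All 9 genes were matched to RefSeq (GRCm38.p6) by gene ID.

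Every member gene is named. From each list, the rule named the 3 called genes with the largest change for the mean IL-23 effect and those called against their list, and the text gives a part of them; some are not reported here. The members and lists were chosen with earlier results of these data known.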

Additional observations from a re-analysis of the deposited data

Results flagged for a closer look

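In 7 of 36 groups of 4 libraries, 1 library stood further from the other 3 than Dixon's 95% criterion of 0.829 for the gap over the range. The criterion holds for normally distributed values and was applied to CPM, often from few counts. The number of flags therefore cannot be set against a rate due to chance. Cxcl5 was 82.0 CPM in IL-23 intraperitoneal library 28, against 5.02 to 11.6 CPM in the others of its group. Csf3r was 39.2 CPM in IL-23 oral library 26, against 12.3 to 16.9 CPM, with a gap over range that barely passed. Csf2 was 2.65 CPM in IL-23 oral library 24, against 0.637 to 0.761 CPM, and 5.995 CPM in IL-23 intraperitoneal library 25, against 0.663 to 1.43 CPM. Among vehicle libraries, Csf3 was 0.477 CPM in oral library 4, against 0.101 to 0.133 CPM. Csf3 was 0.0999 CPM in intraperitoneal library 67 and Csf2 0.238 CPM in intraperitoneal library 59, where the other 3 libraries of the group had 0 counts. These last values rest on 1 and 3 counts, and with the other libraries at 0 the gap over range is 1.0 whatever the value.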

How the results depend on the processing

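No paired analysis was possible because the groups share no sample number. For the mean over routes, all 216 combinations of 9 genes and 24 alternatives kept their call and direction. In oral dosing 213 kept it and 3 lost it, and in intraperitoneal dosing 211 kept it and 5 lost it, all for Ppbp or Csf2, as given with those genes. The filter favoured calls for Cxcl5, Csf3 and Csf2, which passed it only through their IL-23 libraries, so these counts are a description. DESeq2 called 1 gene for the difference between routes, 1 for the route in vehicle libraries and 57 for the route in IL-23 libraries, where edgeR called 0. The cause was not tested. Relations that passed numbered 1 over 8 IL-23 libraries, 3 without library 28 and 3 without the 2 libraries farthest from the median, which tests fewer samples. Differences between routes, none of them called, changed sign when single libraries were left out, with ranges of -0.67 to 0.015 for Cxcl1, -0.28 to 0.74 for Cxcl2, -0.24 to 1.17 for Cxcl3, -0.55 to 2.86 for Cxcl5, -0.78 to 0.21 for Cxcr2 and -0.49 to 0.69 for Ppbp, which was -0.17 with limma-voom. Depth limits Ppbp, Csf3 and Csf2, whose vehicle groups held 1 to 19 counts each.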
